A study of Mus musculus with 2 samples.

Results

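Ighm, Fscn1, Csf3r, Stab1 and Slc1a3 are textbook markers of cells other than microglia, and all were counted in a large share of the sorted hypothalamic microglia studied here. Ighm marks B cells, Fscn1 mature dendritic cells, Csf3r neutrophils, Stab1 the macrophages of the brain's borders and Slc1a3 astrocytes. These 5 genes, of 31053 listed, were chosen by name because they were common in these same libraries while most other markers of their lineages were rare or absent. Their levels, the shares of cells that carried them and the lack of most partner markers are therefore a description and no test of anything.

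The study sorted microglia (the macrophages that live in brain tissue) from the hypothalamus of young wild-type mice, 20 hours after plasma protein carrying a dye had been injected. Several mice were pooled, and the fluorescence sort separated cells with the dye (plasma-positive) from cells without it (plasma-negative). Both groups thus share the genotype, the region, the injection and the dissociation, and differ in the dye signal alone as far as the labels say. Each sort was run as 1 library on the Chromium platform (3' kit, v3.1), where droplets hold single cells and a random tag, the unique molecular identifier (UMI), lets every captured RNA be counted once.

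With 1 library per group there was no test of the groups, no p-value was computed, and cells were not treated as replicates. After filtering, 9860 plasma-negative and 10362 plasma-positive cells held 34534518 and 41984977 UMIs, with medians of 3270.5 and 3753 UMIs per cell. All 11 microglial markers examined (among them Tmem119, P2ry12 and Cx3cr1) had a UMI in at least 79.0% of cells of either library, and 99.8% of cells in each library carried at least 4 of them. Intervals given below are 95% intervals for counting error only: exact Poisson for levels, exact binomial (Clopper-Pearson) for shares of cells, and exact conditional binomial for ratios. Levels are UMIs per 1000000 UMIs of the library (CPM). Molecules were counted near the 3' end and gene length was not corrected for, so the levels of different genes are not ranked against each other.

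A lineage marker is a gene that is abundant in 1 cell type and scarce in the types it is usually compared with, and it seldom marks that type alone. Microglia are myeloid cells, and their gene programme depends on the transcription factor PU.1 (Spi1) and on signalling through the receptor Csf1r. Actin remodelling, uptake of debris and transport of amino acids are all functions that microglia share with the cell types for which these markers are better known.

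Ighm encodes the constant region of the heavy chain of immunoglobulin M, and on the mouse build GRCm38 with GENCODE M21 it lies at chr12:113418558-113422730 on the minus strand, annotated as an immunoglobulin constant gene. Its transcripts end in 2 ways, as a secreted form or as a membrane form carrying an anchor, and the annotated 3' ends of these forms lie 2183 bp apart. The coding ends of both are shown because a 3' method would count either of them, yet the deposited table holds 1 identifier for both, so the forms could not be told apart. The capitals mark the stop codon, the secreted end spans chr12:113420867-113420928, and the membrane end joins exons across an intron within chr12:113418826-113419068.
Ighm secreted end: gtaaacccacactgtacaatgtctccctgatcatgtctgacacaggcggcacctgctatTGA
Ighm membrane end: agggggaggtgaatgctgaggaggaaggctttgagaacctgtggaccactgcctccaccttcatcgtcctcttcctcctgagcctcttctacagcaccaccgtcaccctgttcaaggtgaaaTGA

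The other genes are protein-coding and lie on chromosomes of their own: Fscn1 at chr5:142960343-142973185 (plus strand), Csf3r at chr4:126024550-126044440 (plus), Stab1 at chr14:31139013-31168641 (minus) and Slc1a3 at chr15:8634124-8710764 (minus). RefSeq promoter windows on GRCm38.p6, from 250 bases before the transcription start to 50 bases after it, were found for 4 of the 5 genes, all but Ighm. The windows of Csf3r and Stab1 are shown, and these are the ones that held the motif marked below. Both genes were also highest per UMI in the shallowest cells of both libraries, as described further on. So was Ighm, which had no window, and a link between motif and depth was not tested. The capitals mark GAGGAA, the core motif bound by PU.1, which was searched on both strands.
Csf3r promoter, chr4:126024409-126024708, plus strand: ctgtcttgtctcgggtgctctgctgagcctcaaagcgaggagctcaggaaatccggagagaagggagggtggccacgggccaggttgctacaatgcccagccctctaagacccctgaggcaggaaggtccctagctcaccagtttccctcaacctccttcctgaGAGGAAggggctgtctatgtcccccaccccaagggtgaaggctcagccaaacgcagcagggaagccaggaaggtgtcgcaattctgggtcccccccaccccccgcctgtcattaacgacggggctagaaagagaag
Stab1 promoter, chr14:31168592-31168891, minus strand: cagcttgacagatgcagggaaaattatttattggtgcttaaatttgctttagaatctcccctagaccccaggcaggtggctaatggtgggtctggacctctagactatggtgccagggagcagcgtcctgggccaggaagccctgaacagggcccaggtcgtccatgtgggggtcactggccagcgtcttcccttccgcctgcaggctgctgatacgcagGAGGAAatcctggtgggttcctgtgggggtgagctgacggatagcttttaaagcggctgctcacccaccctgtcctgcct

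Each of these 2 windows held 1 match, starting 86 bases before the start site in Csf3r and 30 bases before it in Stab1. The Fscn1 and Slc1a3 windows held none, while 28.3% of all 32851 promoter windows in the table held at least 1. TATAAA, the letters of a TATA box, was also searched on both strands and shares no overlap with GAGGAA. It stood 31 bases before the start of Fscn1 on the gene's own strand and 161 bases before that of Slc1a3 on the opposite strand, and 13.6% of all windows held it. A match describes the letters and is not evidence of binding. The windows' GC content ran from 45.3% in Slc1a3 to 61.7% in Fscn1, beside a median of 52.7% over all windows.

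Ighm gave 9071 UMIs in the plasma-negative library and 10416 in the plasma-positive one, or 263 CPM (257 to 268) and 248 CPM (243 to 253). At least 1 UMI was found in 52.2% of plasma-negative cells (51.2 to 53.1) and 55.2% of plasma-positive cells (54.2 to 56.1), and single cells reached 11 and 10 UMIs. Because the plasma-positive library was deeper, each cell of at least 1000 UMIs was also thinned to 1000, which kept 9064 and 9759 cells. The share with Ighm was then 22.2% (21.4 to 23.1) and 21.1% (20.3 to 21.9). Most carriers thus held few molecules, and after thinning 3.46% and 3.105% of cells held 2 or more.

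Fscn1 encodes fascin, which bundles actin filaments into the thin protrusions of migrating and antigen-presenting cells. It gave 6910 and 8872 UMIs, or 200 CPM (195 to 205) without the dye and 211 CPM (207 to 216) with it. A UMI was present in 43.6% and 50.2% of cells, and in 17.5% (16.7 to 18.3) and 18.1% (17.4 to 18.9) at 1000 UMIs per cell. The highest counts in single cells were 11 and 15 UMIs.

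Csf3r encodes the receptor for granulocyte colony-stimulating factor, the growth factor of neutrophils. It gave 6835 and 7565 UMIs, or 198 CPM (193 to 203) in plasma-negative cells and 180 CPM (176 to 184) in plasma-positive cells. A UMI was present in 44.5% and 46.3% of cells, and in 17.4% (16.6 to 18.2) and 15.6% (14.9 to 16.3) after thinning. Single cells reached 14 and 11 UMIs.

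Stab1 encodes stabilin-1, a large scavenger receptor that carries modified lipoproteins and the matrix protein SPARC into endosomes. It gave 6089 and 7660 UMIs, or 176 CPM (172 to 181) among plasma-negative cells and 182 CPM (178 to 187) among plasma-positive cells. A UMI was present in 40.9% and 45.4% of cells, and in 16.1% (15.3 to 16.9) and 15.9% (15.2 to 16.6) after thinning, with up to 10 and 12 UMIs in a cell. Its annotated 3' end overlaps that of Nt5dc2, on the opposite strand, by 112 bp. The use of strand in the counting is not given in the sources used here, so a part of these UMIs is uncertain, and Nt5dc2 itself was at 9.61 and 10.5 CPM.

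Slc1a3 encodes the glutamate and aspartate transporter GLAST, which clears glutamate around synapses. It gave 5688 and 6163 UMIs, or 165 CPM (160 to 169) and 147 CPM (143 to 151) in the same order. A UMI was present in 37.4% and 39.1% of cells, and in 14.7% (14.0 to 15.5) and 12.4% (11.8 to 13.1) after thinning, with up to 9 and 11 UMIs in a cell. Averaged over all possible draws of 1000 UMIs the plasma-positive share was 13.1%, so part of the distance between the thinned shares lay in the single draw.

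**Figure D1:**
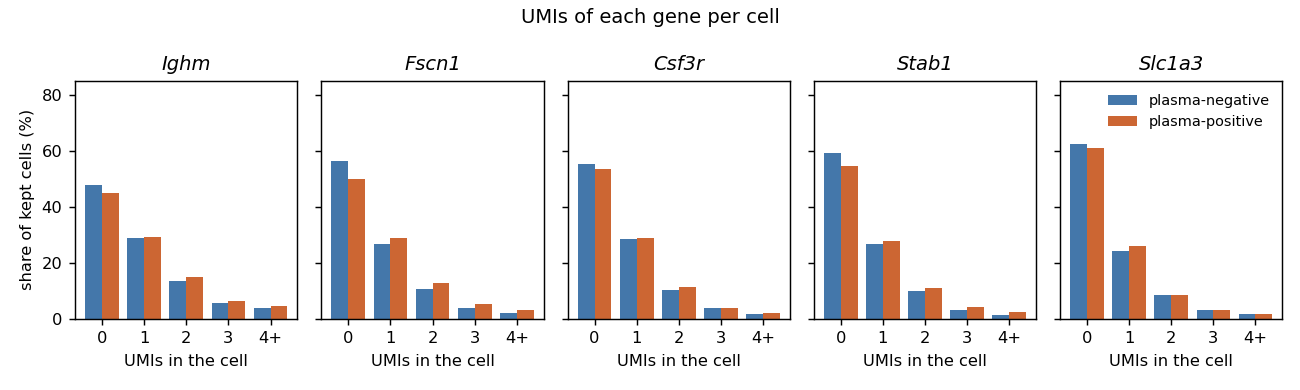
Share of kept cells (%, vertical axis) by the number of UMIs of each gene in the cell (horizontal axis), for the plasma-negative and plasma-positive libraries. In every gene the cells without a UMI and those with 1 UMI are the most frequent, and shares fall from there with no second peak of cells at high counts.

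No separate population of high cells stood out for any of the 5 genes. Cells with 5 or more UMIs of a gene ran from 47 cells for Stab1 (0.477%) to 156 for Ighm (1.58%) in the plasma-negative library, and from 66 cells for Slc1a3 (0.637%) to 209 for Ighm (2.02%) in the plasma-positive one. All of these cells carried at least 4 microglial markers, with a median of 11 of 11. They were deep cells, with median totals from 6085 to 11171 UMIs. Another marker of the lineage was found in 64.1% and 63.6% of them for Ighm, beside 38.7% and 42.6% of all carriers. For Fscn1 it was 61.0% and 52.1% beside 31.1% and 34.5%, and for Stab1 2.13% and 8.57% beside 1.56% and 2.87%. For Csf3r and Slc1a3 it was at most 1.59%. Such shares rise with the depth of a cell, which was not held equal here, and the part of depth in these differences was not tested. The variance of the thinned counts over their mean (the Fano factor, 1 for pure counting noise) ran from 1.03 to 1.09 over genes and libraries. It lay above the upper quartile of genes of similar level for Stab1 in the plasma-positive library (1.09 beside 1.07) and for Slc1a3 there (1.08 beside 1.06), and for no other gene in either library.

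Most further markers of each lineage had a UMI in under 1% of cells, and many had none. Among 19 further B cell markers, 12 had no UMI in either library, including the surface marker Ms4a1 (CD20), the lineage transcription factors Pax5 and Ebf1, and the light chains Igkc and Iglc1 to Iglc4. Taking 3 counts per library as the limit that a count of 0 allows, a gene at 0 could be in up to 0.0304% of plasma-negative cells or 0.0290% of the plasma-positive ones. The exact binomial interval used for other shares reaches further, to 0.0374% and 0.0356%. Igkc had 0 UMIs beside 9071 and 10416 of Ighm, a gap that follows from how the genes were chosen. The antigen receptor subunit Cd79a, which pairs with Cd79b in B cells, had 1 UMI in the plasma-negative and 0 in the plasma-positive library.

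Passing 1% of cells were 4 B cell markers. The adaptor Bank1 was found in 19.1% of cells without the dye and 20.4% of cells with it, Cd79b in 14.3% and 16.4%, Ighd in 4.15% and 4.73%, and the inhibitory lectin Cd22 in 1.65% and 3.26%. Ighd encodes the delta heavy chain and is the nearest listed gene downstream of Ighm, 2233 bp away, while the joining segment Ighj4 on the other side had 0 UMIs. Summed over the 19 markers, the list stood at 135 CPM in each library. At full depth 6525 plasma-negative and 6464 plasma-positive cells held none of the 19.

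Of 16 further dendritic cell markers 4 passed 1% of cells: the transcription factor Batf3 (16.1% and 18.9%), the NF-kB subunit Relb (8.48% and 8.46%), the enzyme Il4i1 (2.90% and 3.45%) and the integrin Itgax, or CD11c (1.10% and 2.22%). The migration receptor Ccr7, which together with Fscn1 marks mature dendritic cells, had 1 UMI in each library. Zbtb46, a transcription factor of conventional dendritic cells, was in 0.781% and 0.791% of cells. Cd209a and Dpp4 had 0, and the list summed to 101 and 103 CPM. At full depth 7232 plasma-negative and 7208 plasma-positive cells held none of the 16.

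Of 16 further neutrophil markers 0 passed 1% of cells and 10 had no UMI in either library, among them S100a8, S100a9, Ly6g, Retnlg, Mpo and Elane. The whole list summed to 1.48 and 1.38 CPM, so that Csf3r supplied 99.3% and 99.2% of the UMIs of the list with itself included. S100a8 had 0 UMIs beside 6835 and 7565 of Csf3r, which again follows from how the genes were chosen. The highest share was that of the chemokine receptor Cxcr2, at 0.233% and 0.212% of cells.

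Of 15 further border macrophage markers only Mrc1 (CD206) passed 1%, with 0.842% of the plasma-negative cells and 1.28% of the plasma-positive ones. Lyve1, Cd209f and Ccl8 had 0 UMIs in both libraries, and the list summed to 4.52 and 8.46 CPM. Cells with at least 3 of these markers numbered 0 and 5, and the 5 plasma-positive ones held 4 Stab1 UMIs in all, or 0.0522% of that library's Stab1. Stab2, the other stabilin, had 3 and 2 UMIs.

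Of 16 further astrocyte and tanycyte markers 0 passed 1% and none was at 0 in both libraries. All 16 together gave 87 UMIs in the plasma-negative and 140 in the plasma-positive library, or 2.52 and 3.33 CPM. The main astrocyte glutamate transporter Slc1a2 (GLT-1) had 11 and 14 UMIs, beside 5688 and 6163 of Slc1a3. Aqp4 had 14 and 26 UMIs and Gfap 1 and 7.

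**Figure D2:**
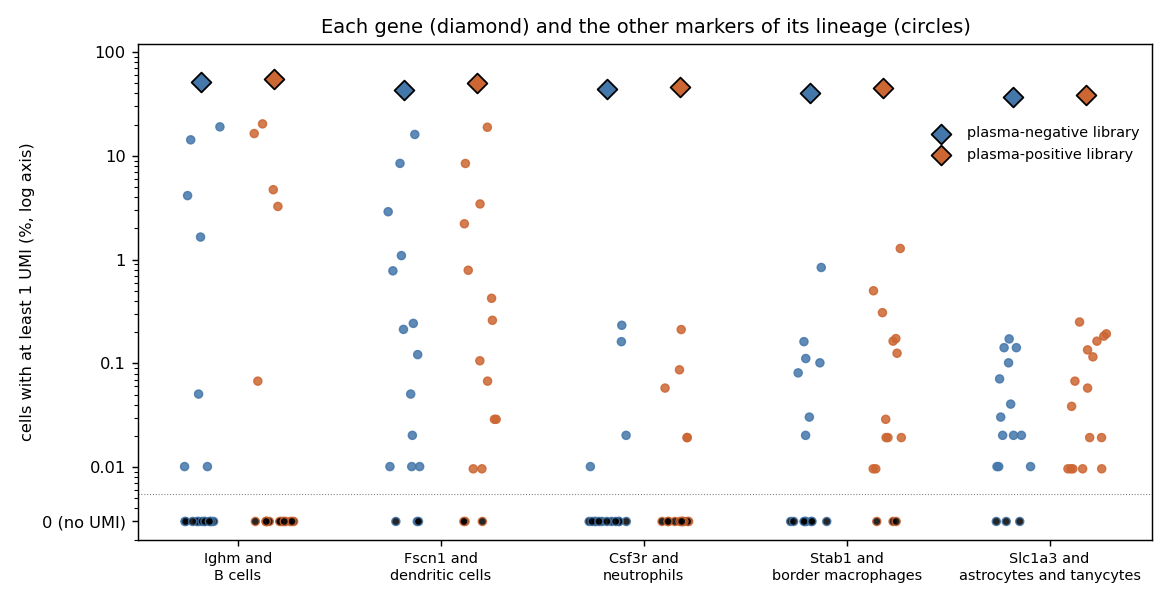
Share of cells with at least 1 UMI (%, log axis, with cells at 0 set on a line of their own) for each gene (diamonds) and the other markers of its lineage (circles), in the plasma-negative and plasma-positive libraries. The 5 genes lie between 37.4% and 55.2%, the highest circles are Bank1 and Batf3, and the neutrophil and astrocyte circles all lie below 1%.

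Over 112 markers of 8 other lineages examined in the same way, these 5 left out, the median share of cells was 0.0203% in the plasma-negative and 0.0290% in the plasma-positive library. Of those markers 15 passed 1% and 29 had 0 UMIs in both. The highest outside the chosen genes was Bank1, at 20.4% in the plasma-positive library. The lowest among the chosen was Slc1a3, at 37.4% in the plasma-negative library. The gap between them follows from how the genes were chosen. The share that free RNA alone would give was not measured, and the lowest totals among the listed barcodes were 504 and 501 UMIs.

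Whether the cells that carried a gene were those that carried its partners was read from the thinned cells. Any B cell partner was found in 13.3% of Ighm carriers and 12.03% of other cells in the plasma-negative library, and in 12.3% and 12.6% in the plasma-positive one, so the intervals overlapped in both. Ighd was found in 1.94% of carriers (1.38 to 2.64) and 1.06% of others (0.838 to 1.33) in the plasma-negative library. In the plasma-positive library it was found in 1.75% (1.23 to 2.42) and 1.38% (1.13 to 1.66), where the intervals overlapped.

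For Fscn1 the shares of cells with any dendritic cell partner were 9.47% of carriers and 9.21% of others in the plasma-negative library and 7.91% and 9.54% in the plasma-positive one. Relb was the partner that differed there, at 1.36% of carriers (0.871 to 2.01) against 2.38% of others (2.06 to 2.74), while it stood at 2.53% and 2.55% in the plasma-negative library. Any border macrophage partner was found in 0.343% of Stab1 carriers and 0.302% of others in the plasma-negative library, and in 0.774% and 0.560% in the plasma-positive one. Mrc1 alone was found in 0.206% and 0.158% in the plasma-negative library. In the plasma-positive one it was in 0.710% of carriers (0.355 to 1.27) and 0.244% of others (0.149 to 0.376), where the intervals overlapped narrowly.

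Neutrophil partners were found in 1 of 1574 Csf3r carriers (0.0635%) and 8 of 7490 other cells (0.107%) in the plasma-negative library. In the plasma-positive one they were found in 6 of 1522 carriers (0.394%, 0.145 to 0.856) and 5 of 8237 others (0.0607%, 0.0197 to 0.142). These intervals just failed to overlap, on few cells, and in the plasma-negative library the carriers had the lower share. Astrocyte partners were found in 0 of 1336 Slc1a3 carriers and 24 of 7728 others (0.311%) in the plasma-negative library, and in 7 of 1210 carriers (0.579%) and 32 of 8549 others (0.374%) in the plasma-positive one. Carriers and other cells had the same median of 9 microglial markers at 1000 UMIs for every gene in both libraries.

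The 5 genes were spread over the cells with little relation to each other. At full depth 89.9% of the plasma-negative cells and 91.5% of the plasma-positive ones held at least 1 of them, and 446 (4.52%) and 596 cells (5.75%) held all 5. Those with all 5 were deep, at medians of 5799.5 and 6706.5 UMIs, and at 1000 UMIs per cell only 1 cell in each library held all 5. In thinned cells the share with both genes of a pair was between 0.926 and 1.08 times the product of the single shares, over 10 pairs and both libraries. Csf3r with Stab1 gave 1.08 in each library, from 274 plasma-negative and 261 plasma-positive cells, and the product lay inside the interval of the observed share both times. Without thinning all ratios ran above 1, from 1.09 to 1.17.

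No gene was strongly tied to any of the 5 across cells. The measure was Pearson's r of log-transformed thinned counts, averaged over the libraries, with 3356 candidate genes at 50 CPM or more in both, and its size stayed under 0.1 for every candidate. The lowest values were -0.04 for Ighm, -0.03 for Fscn1, -0.04 for Csf3r, -0.09 for Stab1 and -0.04 for Slc1a3. The most alike were Mkln1, Mef2a and Maf for Ighm (0.03 each), Actb, Tmsb4x and Hpgd for Fscn1 (0.04, 0.04 and 0.03), and Malat1, Kat6a and Pou2f2 for Csf3r (0.04, 0.03 and 0.03). For Stab1 they were Malat1, Fchsd2 and AC149090.1 (0.07, 0.05 and 0.05), and for Slc1a3 Malat1, Srgap2 and Fyb (0.04, 0.03 and 0.03). In counts this sparse such values are no finding.

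Between the plasma-positive and the plasma-negative library all 5 genes differed little. As a log2 ratio of the plasma-positive over the plasma-negative level, the difference was 0.08 for Fscn1 (0.03 to 0.12) and 0.05 for Stab1 (0.00 to 0.10), and it was -0.08 for Ighm (-0.12 to -0.04), -0.14 for Csf3r (-0.18 to -0.09) and -0.17 for Slc1a3 (-0.22 to -0.11). In 0 of 5 genes did the libraries differ by 1.5-fold, where 0.141% of the 3540 genes at 50 CPM or more in either library did, and also by 1.2-fold 0 of 5 differed, beside 1.33% of all. The median log2 ratio over those 3540 genes was -0.03, with quartiles of -0.09 and 0.04. Fscn1 and Stab1 lay above the upper quartile, Csf3r and Slc1a3 below the lower one and Ighm between the quartiles. The intervals cover counting error, and with 1 library per group the spread between libraries of the same group is not known.

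**Figure D3:**
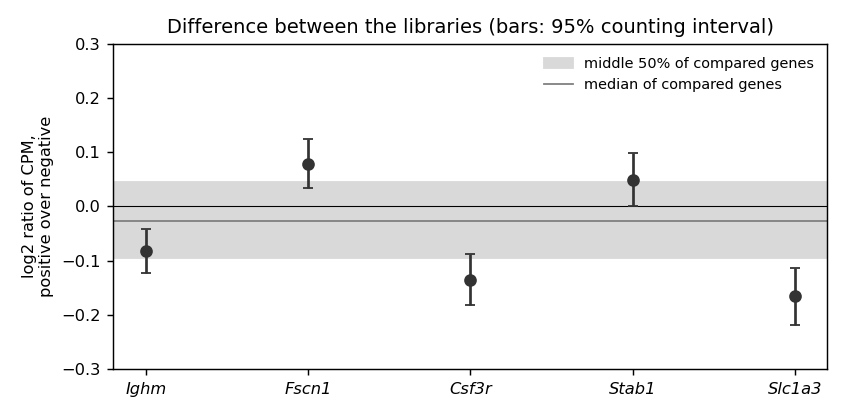
Log2 ratio of CPM, plasma-positive over plasma-negative (vertical axis), for each gene with its 95% counting interval, over the middle 50% (grey band) and the median (grey line) of the 3540 genes compared. Every gene lies within 0.17 of 0, with Fscn1 and Stab1 above 0 and Ighm, Csf3r and Slc1a3 below it.

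Unthinned shares of cells were higher in the plasma-positive library for all 5 genes, including the 3 whose CPM was lower there, so no order between the libraries is read from them. The signs of the log2 ratios were the same under all 8 other ways of filtering, scaling or summing the counts.

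The relatives of each gene were followed in a list of their own, at a floor of 10 CPM in either library, where 0.323% of 8355 genes were 1.5-fold higher in the plasma-positive library, 0.0239% were 1.5-fold lower and the median log2 ratio was -0.04. Of 17 other immunoglobulin genes and partners only Ighd and Cd79b reached the floor, at log2 ratios of -0.06 and 0.02. Ighg1, Ighg2c, Ighg3, Igha and Ighe, the constant regions of the other antibody classes, had 0 UMIs in both libraries, and Ighg2b had 7 and 11. The chain that joins IgM into pentamers, Jchain, had 5 and 8 UMIs.

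Around Fscn1, 8 of 13 other actin genes reached the floor, with a median log2 ratio of 0.10, 7 higher and 1 lower in the plasma-positive library, and 0 of them 1.5-fold apart. Actb, the cytoplasmic actin, had a log2 ratio of 0.16 (0.15 to 0.17) at 4013 and 4485 CPM. The bundling protein Lcp1 (L-plastin) had 0.10 (0.07 to 0.14), and Actg1 0.14 (0.12 to 0.17). The other fascins were all but absent, Fscn2 with 0 and 2 UMIs and Fscn3 with 1 and 0. Actb is also the nearest listed gene to Fscn1 on one side, 53588 bp away.

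Around Csf3r, 12 of 14 other receptor and signalling genes reached the floor, with a median log2 ratio of 0.01, 8 higher and 4 lower, and 0 of them 1.5-fold apart. The ligand Csf3 had 0 UMIs in both libraries. Of the related receptors, Csf1r stood at 3057 and 3121 CPM with a log2 ratio of 0.03 (0.02 to 0.04), and Csf2ra at 89.1 and 98.2 CPM with 0.14 (0.07 to 0.21). Spi1, which encodes PU.1, stood at 410 and 413 CPM in 68.4% and 72.9% of cells. Gfi1, a transcription factor of granulocyte development, had 1 and 0 UMIs.

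Around Stab1, 6 of 13 other clearance receptors and ligands reached the floor, with a median log2 ratio of -0.05, 2 higher and 4 lower. Axl, a receptor for cells tagged for removal, stood at 3.30 and 12.9 CPM with a log2 ratio of 1.96 (1.67 to 2.27). It reached the floor in the plasma-positive library alone, so it had to be higher there to enter the list, and it was the 1 gene in it past 1.5-fold. Its relative Mertk had -0.13 (-0.16 to -0.10) and Sparc, the ligand of stabilin-1, -0.07 (-0.09 to -0.06) at 2435 and 2312 CPM. The engulfment adaptor Gulp1, which binds stabilin-1, had 0 UMIs in both libraries, as did Megf10 and Timd4.

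Around Slc1a3, 6 of 14 other genes of glutamate transport and metabolism reached the floor, with a median log2 ratio of -0.11, 2 higher and 4 lower, and 0 of them 1.5-fold apart. Glutamine synthetase (Glul) stood at 430 and 464 CPM with a log2 ratio of 0.11 (0.08 to 0.14). Slc1a4, a transporter of neutral amino acids, had -0.43 (-0.64 to -0.22) at 11.0 and 8.17 CPM, and it entered the list through the plasma-negative library alone, where it was higher. Slc1a1 and Slc1a6, other glutamate transporters, had 0 and 2 UMIs each, and Slc1a7 had 0.

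Per UMI, Stab1, Csf3r and Ighm were highest in the shallowest cells of both libraries. Each library was cut into 10 bins of equal cell number by total UMIs, and the median total of the shallowest bin was 790.5 in the plasma-negative and 923 in the plasma-positive library. Stab1 was at 359 CPM (318 to 403) in the shallowest plasma-negative bin and between 141 and 186 CPM in the others, and at 351 CPM (316 to 390) against 151 to 189 in the plasma-positive library. Csf3r was at 295 CPM (258 to 335) against 160 to 216 and at 272 CPM (241 to 306) against 160 to 190. Both genes thus stood above every deeper bin in both libraries.

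Ighm was at 360 CPM (319 to 404) against 235 to 276 in the plasma-negative library and at 272 CPM (241 to 306) against 221 to 254 in the plasma-positive one, where the interval of the shallowest bin reached into the range of the others. Fscn1 went the other way. It was lowest in the shallowest bin, at 94.9 CPM (74.8 to 119) and 137 CPM (116 to 162), and highest in the deepest, at 224 CPM (213 to 234) and 230 CPM (220 to 240). Slc1a3 was at 159 CPM (132 to 189) in the shallowest plasma-negative bin, inside the 153 to 174 of the others, and at 178 CPM (153 to 205) against 129 to 158 in the plasma-positive library.

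**Figure D4:**
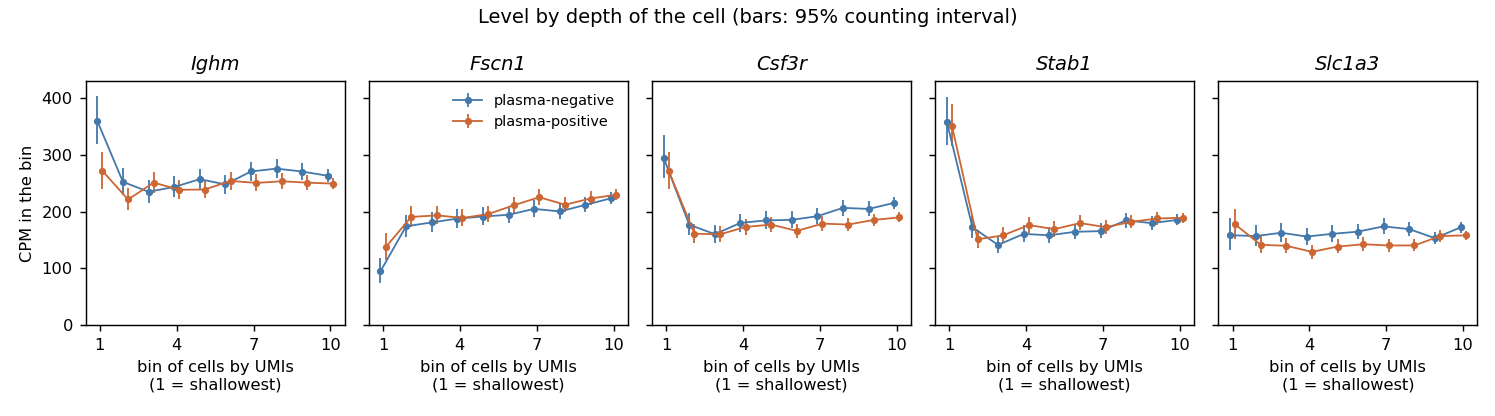
Level of each gene in CPM (vertical axis) by bin of cells in order of total UMIs, 10 bins in all (horizontal axis, 1 the shallowest), with 95% counting intervals, for the plasma-negative and plasma-positive libraries. Stab1 starts at 359 and 351 CPM and drops to below 190 in all deeper bins, Csf3r falls from 295 and 272 to at most 216 and 190, and Fscn1 climbs from 94.9 and 137 to 224 and 230.

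The same shallow bin differed in its RNA makeup. The nuclear RNA Malat1 made up 16.3% of its UMIs in the plasma-negative and 13.02% in the plasma-positive library, beside at most 7.54% and 5.62% in any deeper bin. Cytosolic ribosomal protein genes made up 1.98% and 3.59% there, beside at least 8.15% and 9.29%, mitochondrially encoded genes made up 2.83% and 2.99%, beside at most 1.45% and 1.47%, and Actb stood at 1382 and 2115 CPM. The microglial marker Csf1r was also highest in this bin, at 3451 and 3409 CPM beside at most 3221 and 3230 in any deeper bin. Cx3cr1 was lowest there, at 4239 and 3986 CPM. The share of all genes that were highest in this bin was not computed, so the pattern is not read as particular to the chosen genes. The part of these shifts in RNA makeup in the levels of Stab1, Csf3r, Ighm and Fscn1 was not tested. With cells under 1000 UMIs left out, the log2 ratios between the libraries kept their signs.

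In 10 such bins by mitochondrial share, the levels moved less. From the lowest to the highest bin Fscn1 went from 202 to 164 CPM in the plasma-negative and from 209 to 162 CPM in the plasma-positive library. Csf3r went from 180 to 227 CPM and from 157 to 190. Stab1 went from 145 to 222 CPM in the plasma-negative library and from 183 to 174 in the plasma-positive one, so that it had no common direction. Ighm and Slc1a3 ended at 0.89 to 0.95 times their first level in both libraries.

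Counted over all UMIs, Stab1 was lower in Apoe-high and interferon-high cells than in cells of no state class, in both libraries. Ighm was lower in Apoe-high cells of both libraries, and Fscn1 was lower in both kinds of cell in the plasma-positive library. The share of all genes that differed in the same way was not computed, so these values are not read as particular to the chosen genes. The count over all UMIs was chosen after seeing the data. On the thinned UMIs the intervals of Ighm in Apoe-high cells held 1 in both libraries (0.79, 0.54 to 1.12, and 0.86, 0.72 to 1.03). So did that of Stab1 in interferon-high plasma-negative cells (0.73, 0.45 to 1.13). A state class here is a range of a score: thinned cells with at least 3 UMIs of the class's genes. Apoe-high cells (3 UMIs of Apoe) numbered 158 plasma-negative and 626 plasma-positive cells, cells high in interferon-induced genes 151 and 531, and cells high in immediate early genes 277 and 224. A cell could fall in more than 1 class, and 5 other classes had under 50 cells in each library. Many cells lay next to the limit: 100 and 236 had 2 Apoe UMIs, 344 and 547 had 2 interferon-gene UMIs, and 776 and 770 had 2 immediate early UMIs. Levels were then taken over all UMIs of these cells and divided by the level in the 8450 plasma-negative and 8472 plasma-positive cells of no class.

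In Apoe-high plasma-positive cells Fscn1 was at 0.66 times the level of cells in no class (0.60 to 0.73) and Stab1 at 0.69 times (0.63 to 0.77). Ighm and Slc1a3 were each at 0.83 (0.76 to 0.90 and 0.75 to 0.92), and Csf3r at 0.92 (0.84 to 1.00). In the fewer plasma-negative cells of this class Stab1 was at 0.68 (0.53 to 0.86) and Ighm at 0.81 (0.68 to 0.97), while the intervals of Fscn1 (0.86, 0.70 to 1.05), Csf3r (0.99) and Slc1a3 (0.94) held 1.

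In interferon-high plasma-positive cells Stab1 was at 0.66 (0.58 to 0.74), Fscn1 at 0.73 (0.66 to 0.81) and Csf3r at 0.87 (0.78 to 0.96), and the intervals of Ighm (0.95) and Slc1a3 (0.92) held 1. In the plasma-negative cells of this class Stab1 was at 0.76 (0.60 to 0.95) and Fscn1 at 0.79 (0.63 to 0.96), and the rest held 1. In cells high in immediate early genes Stab1 was at 0.76 (0.64 to 0.90) in the plasma-positive library, and every other value there and all 5 in the plasma-negative library held 1. Counted on the thinned UMIs alone, which are fewer, Stab1 and Fscn1 in both plasma-positive classes, Stab1 in plasma-negative Apoe-high cells and Slc1a3 in plasma-positive ones again had intervals without 1. Csf3r depended on the count: thinned, it was at 0.72 (0.57 to 0.90) in Apoe-high plasma-positive cells and at 1.41 (1.01 to 1.92) in interferon-high plasma-negative cells, and the interval of its 0.83 in interferon-high plasma-positive cells held 1. The other thinned intervals held 1. The classes' median totals before thinning ran from 3223 to 4337 UMIs, beside 3385 and 3836.5 in cells of no class.

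**Figure D5:**
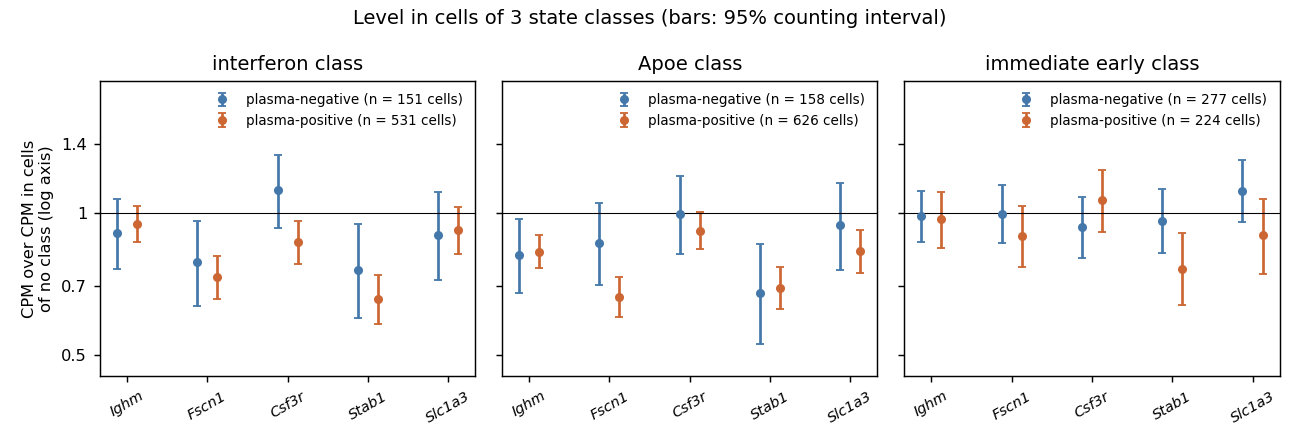
Level of each gene in cells of 3 state classes, as a ratio of its CPM to that in cells of no class (vertical log axis, line at 1), with 95% counting intervals, for the plasma-negative and plasma-positive libraries with their numbers of cells. Stab1 lies at 0.66 to 0.76 in the interferon and Apoe classes of both libraries, and Ighm, Csf3r and Slc1a3 lie closer to 1.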

How the data were processed

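What the authors deposited are untransformed UMI counts for each gene in each cell. The matrix headers give Cell Ranger 6.1.2 and the submitters' processing notes 3.0.1. The build, annotation, use of strand and cell calling are not given in the sources used here. The matrices held 9878 plasma-negative and 10390 plasma-positive barcodes, with lowest totals of 504 and 501 UMIs. A cell needed 500 UMIs or more, 300 genes or more and no more than 10% mitochondrially encoded UMIs, which removed 1 plasma-negative cell for genes and 17 and 28 cells for mitochondrial share. Cell barcodes were not used here, so barcodes shared between the libraries were not counted. Doublets were kept. Scrublet (scanpy 1.11.5) called 0 cells at its automatic threshold and had thus not worked, and an alternative removed the highest-scoring 778 and 859 cells (7.89% and 8.29%).

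Counts were summed per library and given as CPM (numpy 2.4.6, scipy 1.17.1). Of 31053 identifiers 30934 were found in GENCODE M21 (GRCm38), used for coordinates and the coding ends of Ighm, and the promoters came from RefSeq. That build need not be the authors'. Ratios were compared over all genes at 50 CPM or more in either library, and thinning drew 1000 UMIs per cell without replacement. The members and lists were chosen with earlier results of these data known. The rule for named genes took the 5 members, partners and relatives with a UMI in at least 1% of cells of either library, the 3 most correlated genes of each member and the nearest listed neighbours. Of those relatives and neighbours a part is named and the rest stand in the counts and medians. That choice, and the naming of further genes, mostly at few or 0 UMIs, were made after the values were seen. A few genes that the lists hold are not reported here. Alternatives covered filters, doublets, scaling (including TMM in edgeR 4.0.16), thinning and thresholds. The levels by state class from all UMIs, and the shares expected over all draws, were chosen after seeing the data.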

Additional observations from a re-analysis of the deposited data

How the results depend on the processing

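Of 128 recomputed values 90 stayed within their counting interval or within 1.5 times a count, and 38 moved. All log2 ratios kept their sign under 8 alternatives, with ranges of -0.11 to -0.04 for Ighm, 0.07 to 0.12 for Fscn1, -0.17 to -0.10 for Csf3r, 0.02 to 0.09 for Stab1 and -0.26 to -0.13 for Slc1a3, where -0.26 came from thinning each cell to 1000 UMIs and was the only ratio to move. No scaling shifted the median of all genes by more than 0.04. Shares of cells, plasma-negative then plasma-positive, follow depth by construction. With 2000 UMIs per cell they were 38.2% and 37.5% for Ighm, 31.9% and 33.2% for Fscn1, 30.1% and 28.9% for Csf3r, 27.5% and 27.7% for Stab1, and 26.3% and 23.7% for Slc1a3. Without thinning they were 52.2% and 55.2% for Ighm, 43.6% and 50.2% for Fscn1, 44.5% and 46.3% for Csf3r, 40.9% and 45.4% for Stab1, and 37.4% and 39.1% for Slc1a3. With at least 2 UMIs they were 3.46% and 3.105% for Ighm, 1.94% and 2.13% for Fscn1, 1.93% and 1.61% for Csf3r, 1.54% and 1.81% for Stab1, and 1.69% and 1.26% for Slc1a3. Another seed gave 16.6% for Fscn1 and 15.04% for Stab1 in the plasma-negative and 13.5% for Slc1a3 in the plasma-positive library, where the share expected over all draws, added after seeing the data, was 13.1%. At 5% of cells in place of 1%, 2 partners of Ighm, 2 of Fscn1 and 0 of Stab1 passed. Partner counts were unchanged by removing high doublet scores or cells under 1000 UMIs. No paired analysis was possible because a single library stood for each sort, for which reason no replicate was left out either.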

Other observations

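Markers of 3 other lineages were counted in the same cells. Of 10 oligodendrocyte lineage markers 4 passed 1% of cells, among them Cnp (10.5% of cells without the dye and 13.2% of cells with it), Mag (9.83% and 11.3%) and Mbp (7.01% and 8.25%), which encode enzymes and membrane proteins of myelin. Mobp, another myelin gene, was in 0.101% and 0.183% of cells. Of 10 endothelial and mural markers the adhesion molecule Pecam1 (6.71% and 6.94%) and the growth factor receptor Kdr (1.31% and 1.25%) passed 1%, and Rgs5 and Kcnj8 had 0 UMIs. Of 10 neuronal markers 0 passed 1%, the whole list summing to 2.81 CPM in the plasma-negative and 5.62 CPM in the plasma-positive library. Its highest share was that of Snap25, a protein of synaptic release, at 0.213% and 0.483% of cells.

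Of 82 partners of the 5 genes, 40 had UMIs in both libraries. The counting interval of their log2 ratio, plasma-positive to plasma-negative, lay above 0 for 6 and below 0 for 3. The share of all genes with an interval clear of 0 was not computed. These counts are therefore not read as a trait of the partners. Cd22 stood at 5.27 CPM in the plasma-negative and 8.74 CPM in the plasma-positive library (log2 ratio 0.73, 0.47 to 0.99) and Itgax at 3.33 and 6.29 CPM (0.92, 0.60 to 1.25). Mrc1 stood at 2.92 and 4.41 CPM (0.59, 0.23 to 0.96). The other 3 higher ones were rarer border macrophage markers. Ms4a7 had 3 and 37 UMIs (3.34, 1.68 to 5.68), from 2 and 18 cells, and its interval does not allow for several UMIs in a cell. Folr2 had 11 and 35 UMIs (1.39, 0.38 to 2.51) and Siglec1 17 and 54 (1.39, 0.58 to 2.27). The lower ones were Il1r2 with 17 and 6 UMIs (-1.78, -3.42 to -0.37), Relb (-0.21, -0.34 to -0.08) and Bank1 (-0.09, -0.17 to -0.01). These are differences between 2 libraries, and the intervals cover counting error only.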
